A study of Mus musculus with 6 samples.

Results

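A set of 10 genes of procollagen maturation was followed among the 25140 genes of a mouse fibroblast count table. They were taken by symbol from the row names of the table: the prolyl 4-hydroxylase subunits *P4ha1*, *P4ha2* and *P4ha3*, the lysyl hydroxylases *Plod1*, *Plod2* and *Plod3*, the chaperone *Serpinh1*, the procollagen C-proteinase *Bmp1* and its enhancers *Pcolce* and *Pcolce2*. All 10 had a row and all 10 passed the filter on low counts. RNA-seq of polyadenylated RNA had been run on 3 vehicle and 3 TGFβ libraries of fibroblasts from C57BL/6 mice at passage 1, and the study compared the groups to follow the change of fibroblasts into myofibroblasts. Per the labels and the methods the cells were cardiac fibroblasts of adult hearts, whereas the study's results speak of embryonic fibroblasts (MEFs). The cells were grown in DMEM with 25 mM glucose and 10% fetal bovine serum, which was lowered to 1% before treatment. Per the labels, after 16 h in low serum the TGFβ group received TGFβ at 10 ng/ml for 24 h and the vehicle group did not. The study's methods instead give 24 h of low serum before treatment for all experiments. The labels name no altered gene in either group, and the methods call the libraries of a group biological replicates.

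Collagen chains are modified in the endoplasmic reticulum before they are secreted. Prolyl and lysyl hydroxylases are dioxygenases that need iron, ascorbate and α-ketoglutarate. Hydroxyproline keeps the triple helix stable at body temperature, and hydroxylysine carries sugars and takes part in crosslinks. HSP47, the product of *Serpinh1*, binds the folded helix on its way out of the endoplasmic reticulum, and outside the cell the propeptides at both ends are cut away so that fibrils can form.

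The libraries held 27851677 to 31072338 counts, and the 10 genes took 0.603% to 0.633% of them with vehicle and 0.658% to 0.670% with TGFβ. All 7 fibroblast markers examined were detected, and 6 of them were lower with TGFβ at an adjusted p under 0.05. The cardiac lineage genes *Tcf21*, *Tbx20* and *Gata4* were expressed in every library, at 89.4 CPM or more for *Gata4* (CPM are counts relative to library size, scaled between libraries with TMM factors), while *Wt1* lay between 0.978 and 7.27 CPM. *Tcf21* fell by 1.05 and *Tbx20* by 0.53 on the log2 scale with TGFβ (adjusted p = 3.88e-06 and 0.00251). Endothelial markers (5 of 5 detected, none at 0) summed to 340, 384 and 570.1 CPM with vehicle and 288, 311 and 440 CPM with TGFβ. Leukocyte markers (4 of 5 in the table) summed to 34.8 to 49.99 CPM over all libraries. Of the 5 cardiomyocyte markers, 4 averaged under 1 CPM and *Tnnt2* was at 26.6 to 58.3 CPM, and the 3 mesothelial markers summed to 13.3 to 55.5 CPM. The 5 markers of smooth muscle and pericytes summed to 60.1 to 86.3 CPM with vehicle and 75.3 to 128 CPM with TGFβ. Among them only *Cspg4* had an adjusted p under 0.05, and it was higher (log2 fold change 1.45, adjusted p = 0.000614). *Myh11* was at -0.26 (adjusted p = 0.205). In such bulk samples, fewer cells of a type and less RNA per cell cannot be told apart. Libraries are named a, b and c within each group, and the letters follow the order of the columns, which do not say whether libraries of the same letter share a source. The part of these marker shifts in the results was not tested.

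Of the 10 genes, 5 were higher with TGFβ (*P4ha1*, *P4ha3*, *Plod1*, *Plod3* and *Pcolce2*), 1 was lower (*Pcolce*) and 4 did not pass the test (*P4ha2*, *Plod2*, *Serpinh1* and *Bmp1*). The test was the quasi-likelihood fit of edgeR over the 14334 genes kept, and a gene was called where its Benjamini-Hochberg adjusted p was under 0.05. Over all of these, 20.5% were called higher and 20.1% lower. The 5 rises were small, from 1.13-fold for *P4ha1* to 1.35-fold for *Pcolce2*, and the fall of *Pcolce* was to 0.821 of the vehicle level. In 6 of the 10 genes all TGFβ libraries exceeded all vehicle libraries, beside 27.2% of all genes tested, and in 1 gene all of them lay below, beside 26.1%. The median log2 fold change was 0.19 over the 10 genes and -0.001 over all genes tested. *Plod3*, *Pcolce2* and *Pcolce* were called under each of the 13 alternative settings (other scalings, tools, filters and sets of libraries). Without TGFβ library b the number called higher was 3 in place of 5, since *P4ha3* and *Plod1* no longer passed. Over all genes tested it was then 2400 of 14603 in place of 2944 of 14334. Vehicle library c and TGFβ library c had the highest endothelial sums of their groups. Without both, 6 of the 10 genes were called higher and, as before, 1 lower. Over all genes tested, 2671 of 14405 were then called higher and 2687 lower.

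**Figure D1:**
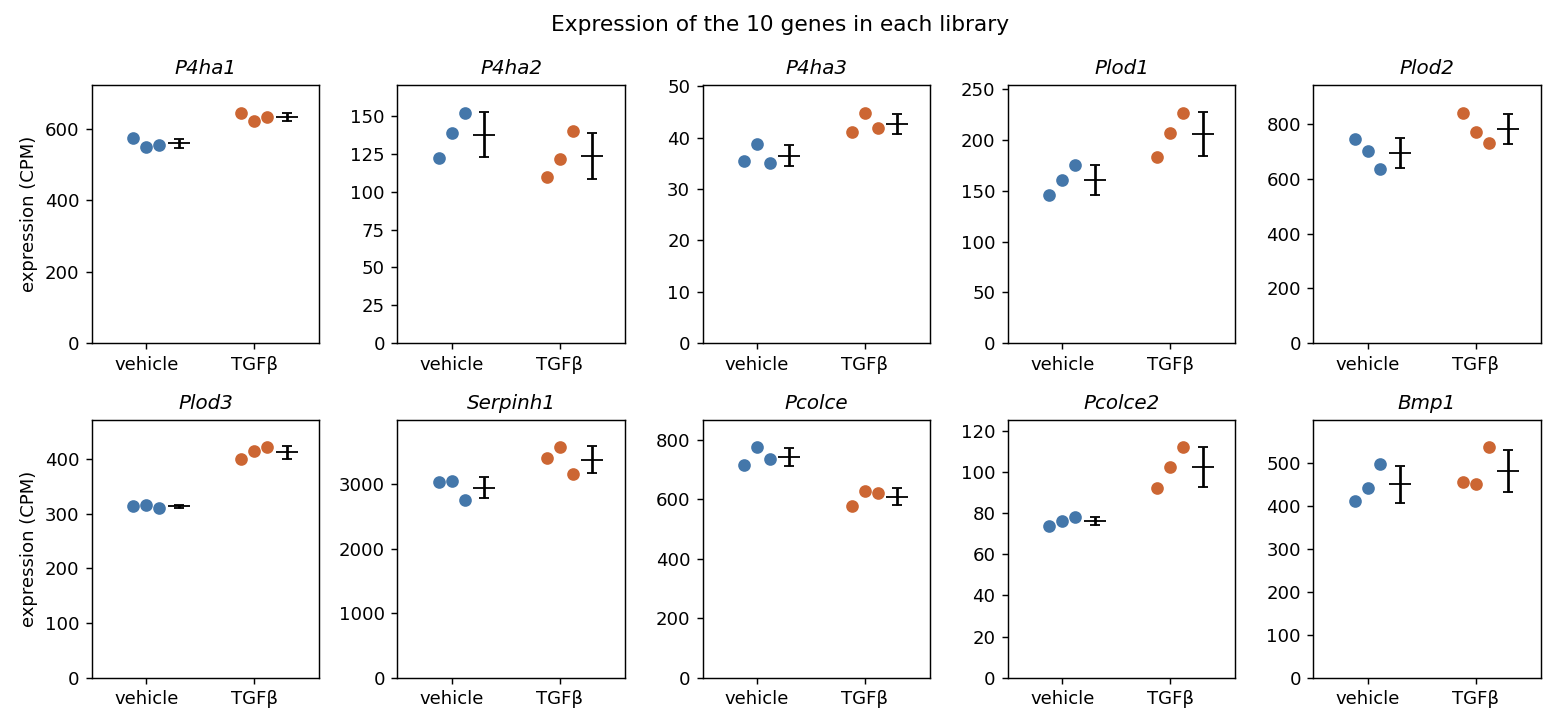
Expression of each of the 10 genes in CPM, with 1 point per library, vehicle in blue and TGFβ in orange, and the mean with its SD as a black bar. The groups are apart for *P4ha1*, *P4ha3*, *Plod1*, *Plod3*, *Serpinh1*, *Pcolce* and *Pcolce2*, and they overlap for *P4ha2*, *Plod2* and *Bmp1*.

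The α subunits encoded by *P4ha1*, *P4ha2* and *P4ha3* carry the catalytic site of collagen prolyl 4-hydroxylase. *P4ha1* (ENSMUSG00000019916, chr10:59323296-59373304, plus strand, GRCm38) was at 574, 549.9 and 557 CPM with vehicle and at 647, 623 and 633 CPM with TGFβ. Each TGFβ library was above each vehicle library. The vehicle mean was 560.2 ± 12.4 CPM and the TGFβ mean 634 ± 11.6 CPM (± SD of 3 libraries), for a log2 fold change of 0.18 (SE 0.04, adjusted p = 0.0116). Without vehicle library b the adjusted p was 0.058.

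*P4ha3* (ENSMUSG00000051048, chr7:100285520-100319699, plus strand), the least abundant of the family per kilobase of exon, was at 35.4, 38.8 and 35.1 CPM with vehicle and at 41.2, 44.9 and 41.9 CPM with TGFβ. The groups did not overlap, and library b was the highest of each. The log2 fold change was 0.23 (SE 0.06, adjusted p = 0.0145), and the adjusted p was 0.0504 without vehicle library a and 0.0555 without TGFβ library b. *P4ha2* (ENSMUSG00000018906, chr11:54100095-54131665, plus strand) was at 122, 139 and 152 CPM with vehicle and at 109.7, 122 and 140.1 CPM with TGFβ. Here the groups overlapped, and the range within each group was wider than the difference of the means. Each TGFβ library was nevertheless below the vehicle library of the same letter. Its log2 fold change of -0.16 had a 95% interval from -0.40 to 0.09 (adjusted p = 0.275).

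Per kilobase of exon, *P4ha1* made up most of the family. The shares depend on the length used, and with the longest transcripts *P4ha1* held less and *P4ha2* more in every library. The values that follow are for exon unions. *P4ha1* held 80.2% ± 1.49 (SD, n = 3) of the summed level of the 3 subunits with vehicle and 82.2% ± 1.31 with TGFβ. *P4ha2* held 13.0% ± 1.40 and 10.6% ± 1.24, and *P4ha3* held 6.84% ± 0.440 and 7.25% ± 0.408. None of these shares separated the groups (two-sided exact permutation tests, p = 0.2 for *P4ha2* and 0.3 for the other two, where 3 libraries against 3 cannot go below 0.1). The order of the levels, *P4ha1* above *P4ha2* above *P4ha3*, was the same in all 6 libraries.

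Lysyl hydroxylase 1, the product of *Plod1*, acts on lysines within the helix. *Plod1* (ENSMUSG00000019055, chr4:147909753-147936767, minus strand) was at 146, 160.5 and 175 CPM with vehicle and at 184, 207 and 227 CPM with TGFβ. The lowest TGFβ library was just above the highest vehicle library. The log2 fold change was 0.36 (SE 0.09, adjusted p = 0.0156), and the adjusted p was 0.051 without TGFβ library b.

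*Plod3* encodes a lysyl hydroxylase that can also add sugars to hydroxylysine. *Plod3* (ENSMUSG00000004846, chr5:136987019-136996648, plus strand) was at 314, 316 and 310.0 CPM with vehicle and at 399.6, 415 and 421 CPM with TGFβ. The vehicle libraries lay close together and every TGFβ library was far above them. The vehicle mean was 313 ± 2.97 CPM and the TGFβ mean 412 ± 11.2 CPM (± SD of 3 libraries), with a log2 fold change of 0.40 (SE 0.04, adjusted p = 0.000255), the smallest adjusted p of the 10 genes. *Znhit1* lies on the opposite strand and shares 11.9% of the 75-base windows of the longest *Plod3* transcript. It had 6.66% as many counts as *Plod3* and a log2 fold change of 0.05 (adjusted p = 0.454), and whether the counting used strand is not given in the sources used here.

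*Plod2*, the lysyl hydroxylase of the telopeptides, was the most abundant of the family per kilobase. *Plod2* (ENSMUSG00000032374, chr9:92542223-92608428, plus strand) was at 747, 702 and 635 CPM with vehicle and at 842, 772 and 732 CPM with TGFβ. TGFβ libraries a and b were above all vehicle libraries, and TGFβ library c lay below vehicle library a. Its log2 fold change of 0.17 had a 95% interval from -0.01 to 0.35 and did not pass the test (adjusted p = 0.111).

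*Plod2* had the largest share of the lysyl hydroxylases in every library. It held 58.0% ± 2.43 (SD, n = 3) of the summed level per kilobase with vehicle and 54.4% ± 2.93 with TGFβ, and these ranges overlapped (exact permutation test, p = 0.2). *Plod3* held 31.3% ± 1.04 and 34.2% ± 1.53, with all TGFβ libraries above all vehicle libraries (exact permutation test, p = 0.1, the smallest possible). The lowest TGFβ library, at 32.53%, was just above the highest vehicle library, at 32.32%. *Plod1* held 10.7% ± 1.40 and 11.4% ± 1.41 (exact permutation test, p = 0.7). Adjusted over the 8 shares of the 3 families, the p-values ran from 0.267 to 0.7.

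*Serpinh1* was the most abundant of the 10 genes, also per kilobase, and held 46.5% to 51.5% of their counts. *Serpinh1* (ENSMUSG00000070436, chr7:99345376-99353239, minus strand) was at 3025, 3053 and 2757 CPM with vehicle and at 3411, 3569 and 3149.6 CPM with TGFβ. Each TGFβ library was above each vehicle library, and library c was the lowest of each group. The vehicle mean was 2945 ± 164 CPM and the TGFβ mean 3377 ± 212 CPM (± SD of 3 libraries), and the log2 fold change of 0.20 (95% interval from 0.04 to 0.36) missed the threshold, with an adjusted p of 0.0535. Its call turned on the settings: it passed with DESeq2 (adjusted p = 0.0194), with limma-voom (0.045), with no filter on low counts (0.0299), without TGFβ library c (0.0274) and without both c libraries (0.0263), and the adjusted p reached 0.174 without TGFβ library b.

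The C-propeptide is cut off by the metalloprotease BMP1, and the glycoproteins PCPE-1 (*Pcolce*) and PCPE-2 (*Pcolce2*) speed up that cut. The transcripts of the enhancers moved in opposite directions. *Pcolce* (ENSMUSG00000029718, chr5:137605103-137613784, minus strand) was at 715, 774 and 736 CPM with vehicle and at 577, 629 and 621 CPM with TGFβ. Every TGFβ library was below every vehicle library. The vehicle mean was 742 ± 29.8 CPM and the TGFβ mean 609 ± 28.3 CPM (± SD of 3 libraries), with a log2 fold change of -0.29 (SE 0.05, adjusted p = 0.00435).

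*Pcolce2* (ENSMUSG00000015354, chr9:95637601-95698096, plus strand) was at 74.0, 76.3 and 78.0 CPM with vehicle and at 92.4, 103 and 112 CPM with TGFβ. The vehicle libraries were close together, the TGFβ libraries were spread more widely, and the groups were apart. The vehicle mean was 76.1 ± 1.99 CPM and the TGFβ mean 102 ± 9.82 CPM (± SD of 3 libraries), for a log2 fold change of 0.43 (SE 0.07, adjusted p = 0.00206) and the highest of the 10 genes. *Bmp1* itself (ENSMUSG00000022098, chr14:70474558-70520234, minus strand) was at 411, 441 and 497 CPM with vehicle and at 455, 451 and 536 CPM with TGFβ. Its groups overlapped, library c was the highest of each, and the log2 fold change was 0.10 (95% interval from -0.11 to 0.31, adjusted p = 0.431).

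Per kilobase of exon, *Pcolce* stayed well above *Pcolce2* in every library, at 11.8 ± 0.438 times its level with vehicle and 7.22 ± 0.454 times with TGFβ (SD, n = 3 each). The share of *Pcolce2* in the summed level of both was 7.88%, 7.53% and 8.05% with vehicle and 11.7%, 11.9% and 13.0% with TGFβ. The groups were apart by 4.37 percentage points in the mean (exact permutation test, p = 0.1, adjusted p = 0.267 over the 8 shares). *Pcolce* was at 3.85 ± 0.356 times the level of *Bmp1* with vehicle and at 2.96 ± 0.273 times with TGFβ. With the longest transcripts in place of exon unions, *Pcolce* was further above *Pcolce2* in every library.

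**Figure D2:**
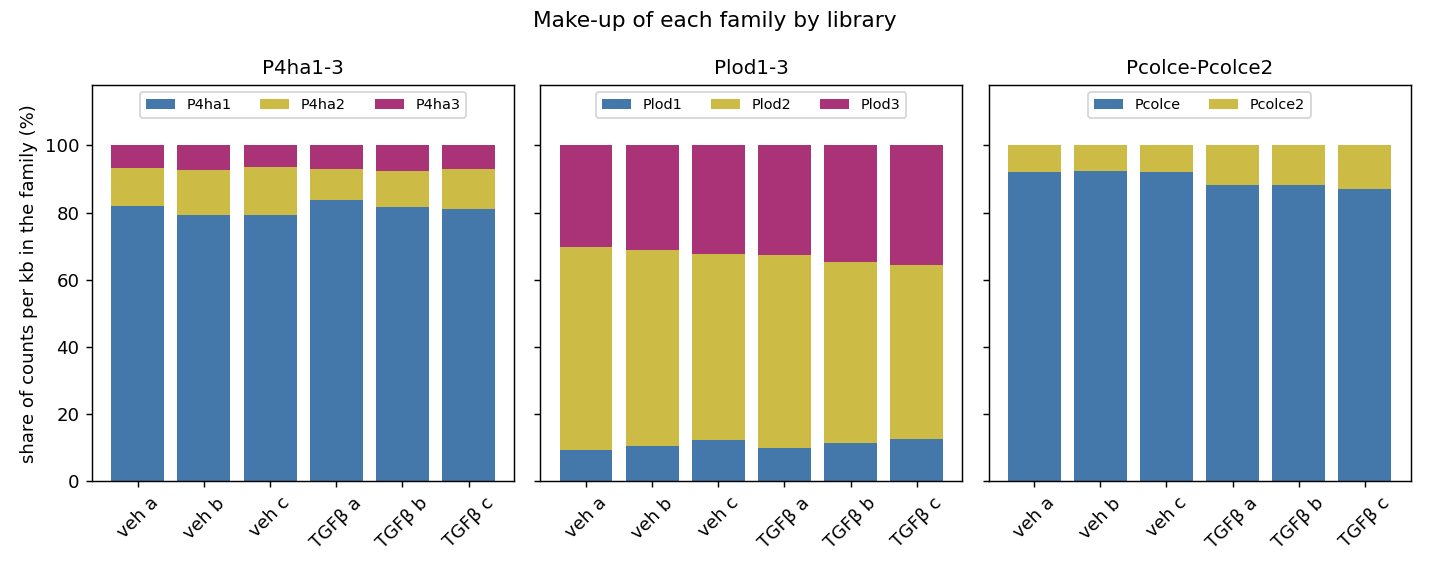
Share of each gene in the summed counts per kilobase of its family, in percent, for each of the 6 libraries. The share of *Pcolce2* goes from 7.53% to 8.05% with vehicle to 11.7% to 13.0% with TGFβ, and the order of the genes within each family is the same in all libraries.

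The promoters of 4 genes are shown because they cover the rise with the smallest adjusted p (*Plod3*), the most abundant gene (*Serpinh1*) and the enhancer pair that moved apart. They come from RefSeq on GRCm38.p6, run from 250 bases before to 50 bases after a transcript start, and are written 5′ to 3′ on the strand of the gene: chr5:136986769-136987068 (plus), chr7:99353190-99353489 (minus), chr5:137611355-137611654 (minus) and chr9:95637378-95637677 (plus). Capitals mark matches on either strand of the following motifs: the core of the hypoxia response element, ACGTG, the core of the SMAD-binding element, CAGAC, the motif CCAAT, which NF-Y binds, the initiation motif TATAAA, the paired units of the heat shock element, GAANNTTC, the core bound by ETS factors, CGGAAG, and the GC box, GGGCGG. Matches of different motifs did not overlap in these windows.
Plod3: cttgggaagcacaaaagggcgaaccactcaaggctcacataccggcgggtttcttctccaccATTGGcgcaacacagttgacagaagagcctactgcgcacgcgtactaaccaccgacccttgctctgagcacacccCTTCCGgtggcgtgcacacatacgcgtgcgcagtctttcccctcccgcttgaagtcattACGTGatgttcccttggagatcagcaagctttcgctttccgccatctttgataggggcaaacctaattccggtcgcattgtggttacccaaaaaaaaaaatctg
Serpinh1: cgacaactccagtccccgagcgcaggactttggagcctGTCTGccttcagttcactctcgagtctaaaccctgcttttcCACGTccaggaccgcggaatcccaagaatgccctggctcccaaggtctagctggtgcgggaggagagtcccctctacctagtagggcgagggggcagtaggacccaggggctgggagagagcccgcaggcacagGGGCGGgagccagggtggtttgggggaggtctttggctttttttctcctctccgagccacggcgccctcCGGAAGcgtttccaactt
Pcolce: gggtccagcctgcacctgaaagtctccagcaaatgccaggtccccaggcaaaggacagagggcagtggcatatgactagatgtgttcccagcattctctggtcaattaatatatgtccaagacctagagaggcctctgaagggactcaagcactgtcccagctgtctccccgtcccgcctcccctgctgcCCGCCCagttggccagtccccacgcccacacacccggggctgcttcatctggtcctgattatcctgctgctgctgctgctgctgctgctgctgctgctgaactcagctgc
Pcolce2: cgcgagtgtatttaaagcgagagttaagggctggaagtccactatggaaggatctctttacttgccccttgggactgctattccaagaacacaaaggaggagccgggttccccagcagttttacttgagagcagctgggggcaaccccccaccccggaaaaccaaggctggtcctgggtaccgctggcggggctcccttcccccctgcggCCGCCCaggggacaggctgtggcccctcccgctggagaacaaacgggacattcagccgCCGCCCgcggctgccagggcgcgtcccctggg

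A window was found for 8 of the 10 genes, all but *Plod2* and *Bmp1*. GC boxes were in 7 of the 8 windows, beside 35.7% of 32851 promoter windows. ACGTG was in 4 of the 8 (*Plod3*, *Serpinh1*, *P4ha1* and *P4ha2*), beside 19.6%, and CGGAAG in 3 (*Plod3*, *Serpinh1* and *P4ha3*), beside 16.9%. CAGAC was in 2 of the 8 (*Plod1* and *Serpinh1*), beside 49.6% of all windows. TATAAA was in 2 (*Plod1* and *P4ha1*), beside 13.6%, CCAAT in 1 (*Plod3*), beside 37.4%, and GAANNTTC in 1 (*Plod1*), beside 7.86%. The TATAAA match of *Plod1* began at base -232 from the transcript start, on the opposite strand, and that of *P4ha1* at base 39, after the start. *Pcolce* and *Pcolce2*, which changed in opposite directions, both held GC boxes and none of the other motifs. The windows were 53.3% (*Plod3*) to 70.3% (*P4ha1* and *P4ha2*) G or C, where the median of all windows was 52.7%.

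Compared per kilobase of exon, the levels of the 10 genes covered a wide range. *Serpinh1* led at 1205 CPM per kilobase with vehicle and 1382 with TGFβ, higher than 99.9% of the genes tested in both groups. *Pcolce* came next at 194 and 159, then *P4ha1* at 136 and 154, *Plod2* at 129 and 145, *Plod3* at 69.3 and 91.2, and *Bmp1* at 50.7 and 54.2. *Plod1* was at 23.7 and 30.5, *P4ha2* at 22.1 and 19.8, *Pcolce2* at 16.5 and 22.1, and *P4ha3* was the lowest at 11.6 and 13.6. Within libraries, *P4ha1* was above *Plod2* in all 6, *Plod1* was above *P4ha2* in all 6, and *Pcolce* was above *P4ha1* and above *Plod2* in 5, all but TGFβ library a. *P4ha2* was above *Pcolce2* in the 3 vehicle libraries and below it in the 3 TGFβ libraries. Part of this order turned on the length used: per kilobase of the longest transcript *P4ha1* was below *Plod2* in all 6 libraries, *Plod1* was below *P4ha2* in the 3 vehicle libraries, and *P4ha2* was above *Pcolce2* in all 6.

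Set against the transcripts of their main substrate, with exon unions as the lengths, the groups were apart for 6 of the 10 genes. The share of all genes tested that are apart in this ratio was not computed, so the 6 have no background. They include *Bmp1*, whose CPM overlapped between the groups, and leave out *P4ha1* and *Serpinh1*, whose CPM did not. The summed level of *Col1a1*, *Col1a2* and *Col3a1* per kilobase was taken as the reference within each library, so these differences do not depend on scaling between libraries. They do depend on the chains taken, since the sum includes *Col3a1*, which fell with TGFβ. Relative to it *Plod3* was 0.45 higher on the log2 scale with TGFβ, *Pcolce2* 0.48, *Plod1* 0.42, *P4ha3* 0.29 and *Bmp1* 0.16, each with the groups apart, and *Pcolce* was lower, at -0.23, also with the groups apart. The groups overlapped for *P4ha1* (0.24), *Plod2* (0.23), *Serpinh1* (0.26) and *P4ha2* (-0.10). The values, and which genes were apart, also depend on the length used. With the longest transcript the groups overlapped for *Pcolce* and were apart for *P4ha1*. With the longest transcript, *Bmp1* was at 0.21, *Pcolce* at -0.17 and *P4ha2* at -0.04, and none of the 10 genes changed sign. Single libraries weighed on these differences: *Plod2* was at 0.10 without vehicle library c, at 0.14 without TGFβ library a and at 0.35 without vehicle library a, *Serpinh1* was at 0.15 without vehicle library c, and *P4ha2* was at -0.06 without TGFβ library a and at -0.15 without TGFβ library c. With exon unions, the smallest possible p of 0.1 was reached by the 6 genes whose groups were apart. Adjusted over the 10 genes it was 0.167 (exact permutation tests). Among the chains themselves, *Col3a1* fell by 0.94 on the log2 scale (adjusted p = 0.00104) while *Col1a1* (0.23, adjusted p = 0.055) and *Col1a2* (0.13, adjusted p = 0.196) did not pass the test, and *Col1a1* passed under 5 of the 13 alternatives, among them without vehicle library c. Beside the 0.23 of *Col1a1*, the log2 fold changes of *P4ha1* (0.18), *P4ha3* (0.23), *Serpinh1* (0.20), *Plod2* (0.17) and *Bmp1* (0.10) were no larger. Those of *Plod1* (0.36), *Plod3* (0.40) and *Pcolce2* (0.43) were larger, and *P4ha2* and *Pcolce* were below 0. Ratios to single chains were not tested.

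The spread within groups was shared by several of the 10 genes, and the test counted it as error, since the columns name no pairs. Library c was the highest of both groups for *P4ha2*, *Plod1*, *Pcolce2* and *Bmp1*, and the lowest of both for *Plod2* and *Serpinh1*. How many of all genes tested share such patterns was not counted. Of the genes not called, *P4ha2* was lower in the TGFβ library than in the vehicle library of the same letter each time. *Plod2*, *Serpinh1* and *Bmp1* were higher each time. For *Serpinh1* this follows from all its TGFβ libraries lying above all its vehicle libraries. Whether libraries of the same letter share a source is not given, and differences by letter were not tested. In log2 CPM around the group mean, *P4ha2* was at 0.15 in vehicle library c and 0.19 in TGFβ library c, and *Plod2* was at -0.13 and -0.09. The summed endothelial markers were at 0.44 and 0.37 in the same 2 libraries. Their part in the spread was not tested. *P4ha1* and *Plod3* differed least within groups, by at most 0.04 from the mean in any library.

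**Figure D3:**
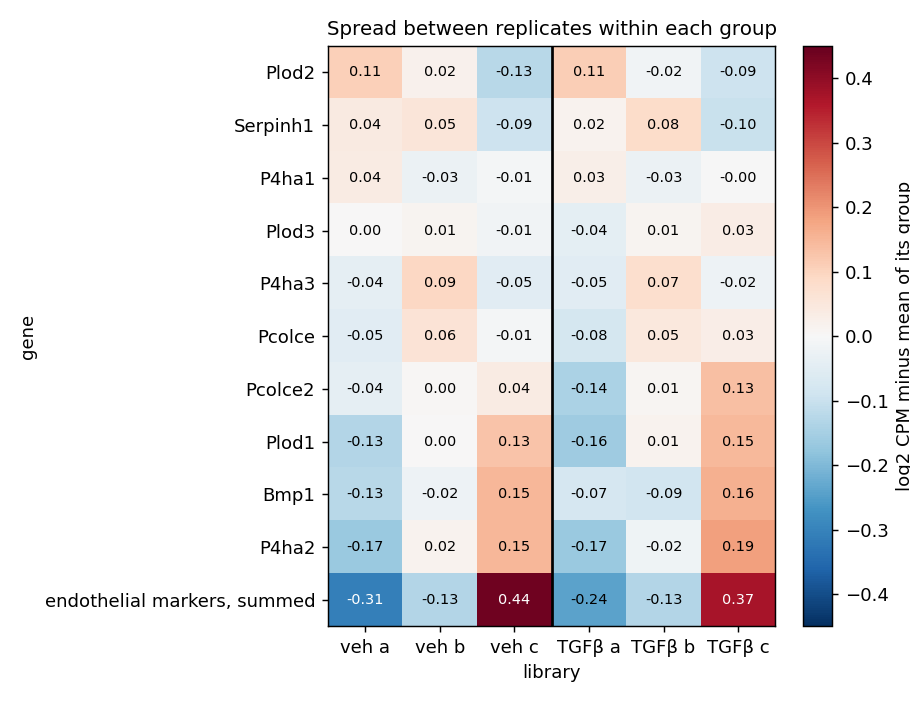
Deviation of each library from the mean of its group in log2 CPM, for the 10 genes and for the summed endothelial markers, with red above and blue below the mean. Library c of both groups is high for the endothelial sum, *P4ha2*, *Bmp1* and *Plod1* and low for *Plod2* and *Serpinh1*.

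Around the 10 genes, a list of 40 other genes of collagen biosynthesis and related enzymes was examined, of which 38 were tested. The list and its counts include *P4htm*, *Egln1*, *Egln2* and *Egln3*, prolyl hydroxylases that act on HIF. With TGFβ 16 of them were higher, 9 lower and 13 not called, and their median log2 fold change was 0.15. Over all genes tested 20.5% were called higher and 20.1% lower, and the counts by subgroup below are to be read beside these shares. *P4hb*, the β subunit that the collagen prolyl 4-hydroxylases need and also a protein disulfide isomerase, rose from a mean of 1374 ± 24.1 CPM with vehicle to one of 2037 ± 48.7 CPM (± SD of 3 libraries, log2 fold change 0.57, adjusted p = 9.46e-05). In the same subgroup *P4htm*, a membrane-bound prolyl hydroxylase that acts on HIF, fell by 0.51 on the log2 scale (adjusted p = 0.022), a call lost under 5 of the 13 alternatives, among them without vehicle library b or c and without TGFβ library a or c.

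Of the prolyl 3-hydroxylase complex and its relatives, 3 of 6 genes were higher and none was lower. *P3h1*, the enzyme, was at 179.7, 173 and 168 CPM with vehicle and at 301, 302 and 311 CPM with TGFβ (log2 fold change 0.81, adjusted p = 1.17e-05). *P3h4*, which works with the lysyl hydroxylases, was higher as well, at 0.61 on the log2 scale (adjusted p = 0.000386). The third was *Ppib*, the cyclophilin of the complex, at 0.25 (adjusted p = 0.0102), with 26.6% of its windows shared with other genes, and *Crtap*, the third partner of *P3h1*, was at -0.08 (adjusted p = 0.403).

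*Colgalt1*, which adds galactose to hydroxylysine, rose (log2 fold change 0.53, adjusted p = 0.000363), with 13.4% of its windows shared with another gene, and *Colgalt2* did not pass the test (-0.16, adjusted p = 0.628). The FK506-binding proteins of the endoplasmic reticulum assist the folding of collagen, and 3 of 4 were higher. *Fkbp10*, whose product supports the action of *Plod2*, had a mean of 349 ± 12.8 CPM with vehicle and of 599 ± 2.08 CPM with TGFβ (± SD of 3 libraries, log2 fold change 0.78, adjusted p = 1.75e-05). *Fkbp7* rose by 0.56 and *Fkbp14* by 0.42 on the log2 scale, and *Fkbp9* was at -0.08 (adjusted p = 0.199).

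Of the 7 genes of procollagen export, 4 were higher and none was lower. *Sec23a*, a subunit of the COPII coat, was higher by 0.52 on the log2 scale (adjusted p = 0.000131). *Sec13*, also of that coat, was at 0.49, and *Sec24d* did not pass the test (0.06, adjusted p = 0.235). The large-cargo receptors *Mia2* and *Mia3* were at 0.21 and 0.15. The call of *Mia3* was lost under 7 of the 13 alternatives, among them the removal of any single library other than vehicle b.

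All 3 proteases that cut the N-propeptide fell. *Adamts2*, the main procollagen N-proteinase, was at 976, 1065 and 1059 CPM with vehicle and at 696, 710.4 and 706 CPM with TGFβ (log2 fold change -0.55, adjusted p = 0.000138). *Adamts14* was at -0.94 (adjusted p = 2.79e-05) and *Adamts3*, which is low in these cells at 3.15 ± 0.231 CPM with vehicle (SD, n = 3), was at -1.03 (adjusted p = 0.00188). Per kilobase, *Adamts2* was at 2.19 ± 0.145 times the level of *Bmp1* with vehicle and at 1.40 ± 0.131 times with TGFβ.

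*Tll1*, a protease of the BMP1 family, was at 3.43, 1.58 and 4.26 CPM with vehicle and at 34.8, 8.24 and 14.3 CPM with TGFβ. All TGFβ libraries were above all vehicle libraries, but library a was far above the other two. The log2 fold change was 2.62 (SE 0.57, adjusted p = 0.00818), or 6.15-fold, and without TGFβ library a it was 3.64-fold. *Tll2* was at 0.405 CPM or less and was not tested. Of the 3 genes that act on these proteases, *Sfrp2*, a secreted frizzled-related protein that binds BMP1, was lower, with a mean of 125 ± 13.4 CPM with vehicle and of 18.5 ± 1.56 CPM with TGFβ (± SD of 3 libraries, log2 fold change -2.75, adjusted p = 3.88e-06), with 10.5% of its windows shared with another gene. *Furin*, a convertase that removes the prodomain of BMP1, was higher (0.49, adjusted p = 0.000453), and *Pcsk6* did not pass the test (-0.52, adjusted p = 0.086), though it did under 3 of the 13 alternatives, among them without vehicle library c.

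Among the 6 substrate chains 2 were higher, the type V chains *Col5a1* (log2 fold change 0.29) and *Col5a2* (0.40), and 2 were lower, *Col3a1* (-0.94) and *Col5a3* (-1.06). The ascorbate transporter *Slc23a2* was lower (-0.26, adjusted p = 0.00271), and *Slc23a1* was not tested. Of the HIF prolyl hydroxylases, which belong to the same class of dioxygenases, *Egln2* was lower (-0.14, adjusted p = 0.0484), a call lost under 8 of the 13 alternatives, among them the removal of any single library other than TGFβ b, and *Egln1* and *Egln3* did not pass the test.

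**Figure D4:**
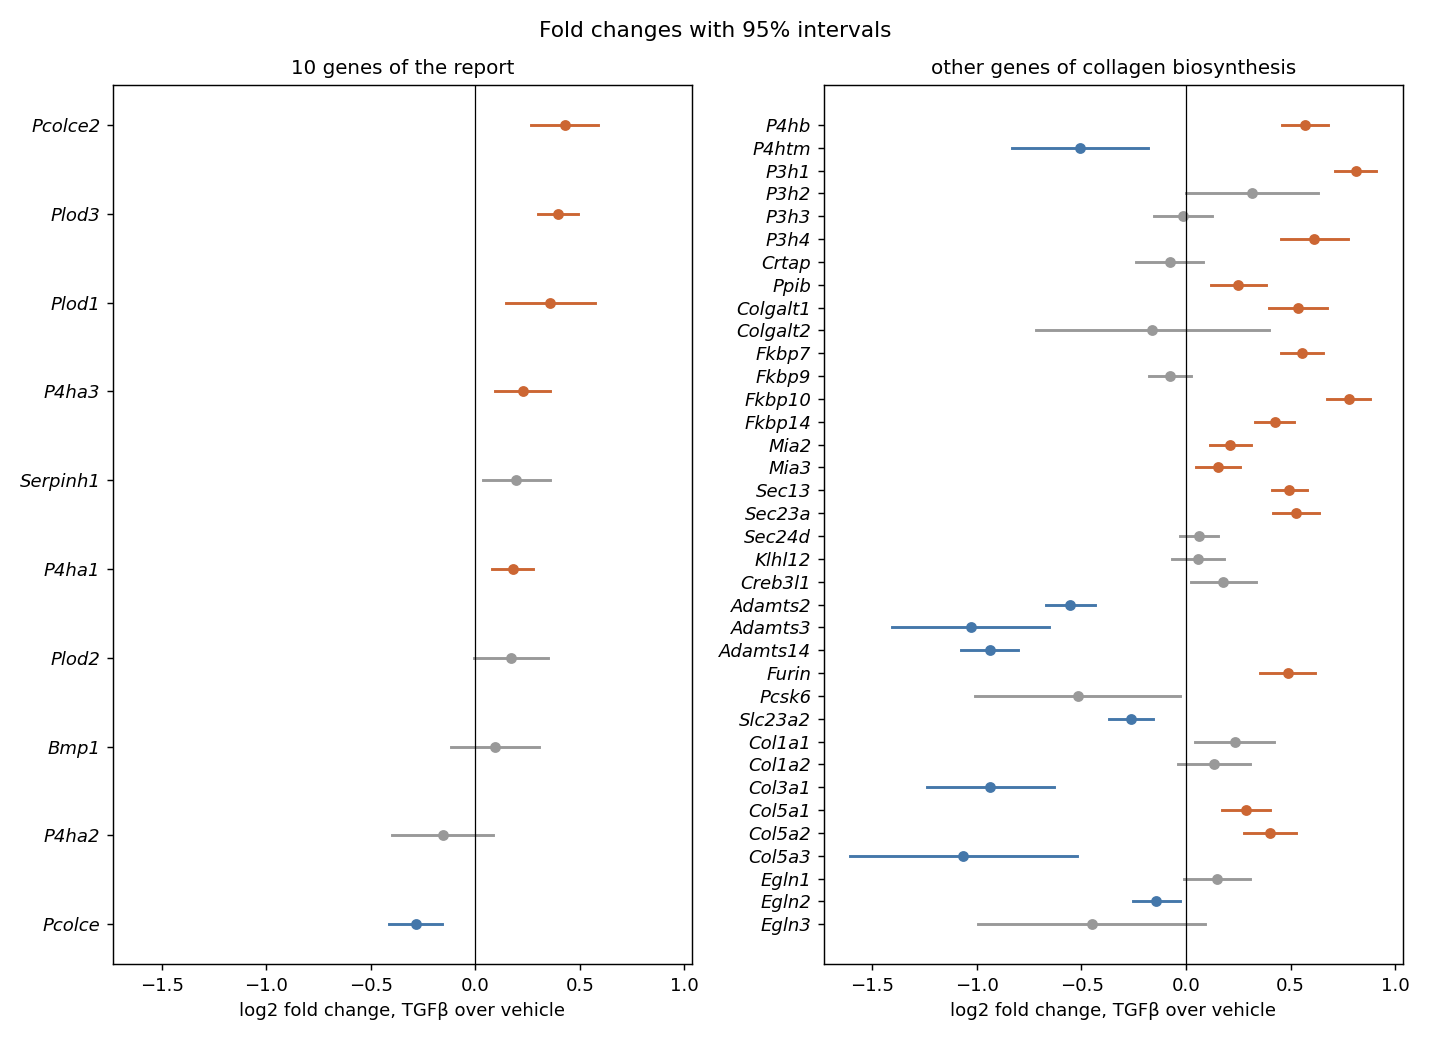
Log2 fold change of TGFβ over vehicle with its 95% interval, for the 10 genes on the left and for 36 of the 38 other tested genes of collagen biosynthesis and related enzymes on the right, in orange where called higher, in blue where called lower and in grey where not called. *Tll1* (2.62) and *Sfrp2* (-2.75) lie beyond the axis and were left out of the plot.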

How the data were processed

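Polyadenylated RNA went through a stranded kit and 75-base single-end sequencing, and the authors used DESeq2. The submitters' processing notes name mm10. The aligner, the counter, its annotation and its use of strand are not given in the sources used here. The table the authors deposited holds raw counts of reads per gene and library. Its columns of the authors' own comparison (a mean, fold changes and p-values) were not used. The columns name the group but no replicate.

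TMM-scaled CPM came from edgeR 4.0.16 (R 4.3.3), as did the filter on low counts (filterByExpr, 14334 genes kept), and so did the quasi-likelihood test on all 6 libraries, adjusted with Benjamini-Hochberg. The standard error is the fold change over the square root of F. These genes had 1048 to 99667 counts per library, and the part of counting error in their spread was not computed. The p-values of the quasi-likelihood test rest on the spread between 3 libraries a group. In that fit the spread of each gene is drawn toward a trend over all genes. Single ratios were compared with two-sided exact permutation tests (scipy 1.17.1). Lengths are the exon unions of GENCODE M21 on GRCm38. Only the test of fold changes was tried on simulated counts, in which few genes changed and genes varied independently within groups. The shares, ratios and motif counts were not tried in this way.

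The 10 genes and the lists were chosen with earlier results of these data known. Of the wider list, the genes named are those called in each subgroup whose log2 fold change is 0.5 or more in size, with *P4hb*, *P3h1*, *Colgalt1* and *Adamts2* in any case. Others were named after their values were seen. The alternatives were DESeq2 size factors, upper quartile factors, DESeq2 1.42.0, limma-voom (limma 3.58.1), no filter, removal of each library singly, a filter at 1 CPM in 3 libraries, a threshold of 0.01 on the adjusted p, other gene lengths for the shares, and, added after the data were seen, the removal of the library with the highest endothelial sum from each group.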

Additional observations from a re-analysis of the deposited data

How the results depend on the processing

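No paired analysis was possible because the columns of counts carry no replicate number. Of the genes tested, 5828 were called, and 4489 to 5840 under the alternatives. No alternative changed the direction of any of the 10 genes. The number of them called higher was 5, and it was 2 at an adjusted p of 0.01 (*Plod3* and *Pcolce2*) and 3 to 6 when single libraries were left out. Over all genes tested, 2944 were called higher, and 2243 to 2716 when single libraries were left out. Their number at 0.01 was not computed. Of the 10 genes, the number called lower was 1 throughout. With the longest transcript as the length, the difference in share between TGFβ and vehicle was -3.87 percentage points for *P4ha2* (-2.44 with exon unions) and -3.26 for *Pcolce* with 3.26 for *Pcolce2* (-4.37 and 4.37 with exon unions). With no length, the last pair was -5.07 and 5.07. The shares within each group also moved with the length used. With single libraries left out, the log2 fold change was between 0.004 and 0.17 for *Bmp1*, -0.26 and -0.08 for *P4ha2*, and 0.11 and 0.23 for *Plod2*, none of which were called. Their 95% intervals include both 0 and changes as large as those called for other genes of the set.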

Other observations

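Per kilobase of exon, *P4hb* was at 2.86, 2.80 and 2.83 times the summed level of *P4ha1*, *P4ha2* and *P4ha3* in the vehicle libraries and at 3.69, 3.90 and 3.79 times in the TGFβ libraries. This ratio was chosen after the values were seen and was not tested.

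Several of the 10 genes lie on the same chromosome. *Plod3* and *Pcolce*, of which the first rose and the second fell, lie 608 kb apart on chromosome 5 with 20 protein-coding genes between them. *Serpinh1* and *P4ha3* lie 932 kb apart on chromosome 7 with 17 protein-coding genes between them, and *Plod2* and *Pcolce2* lie 3.03 Mb apart on chromosome 9 with 5 between them.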
